A study of Mus musculus with 16 samples.

Results

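Cadherins and non-clustered protocadherins were followed across the cell clusters and time points of a mouse spinal cord injury series. Members were all gene symbols made of Cdh or Pcdh followed by digits alone, which took 34 of the 55487 symbols in the count table, 23 cadherins and 11 protocadherins. Cdh2 (N-cadherin) is among them, and the protocadherins of the alpha, beta and gamma gene clusters are not. Together the members had 223911 UMIs (unique molecular identifiers, each standing for a captured RNA molecule), of which 50.9% were from Pcdh9.

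The series held single-cell 3′ libraries of spinal cord from 16 mice, 1 library per mouse, made to ask how loss of the Wnt receptor Ryk from astrocytes alters the response to injury. Control mice, called WT, were Ryk+/+,GFAPcreERT2 and conditional knockouts, called cKO, were Rykfl/fl,GFAPcreERT2, so that both carried the tamoxifen-dependent Cre driven by the human GFAP promoter. Mice were 8 to 10 weeks old and were taken uninjured (labelled sham) or at 1 d, 7 d or 14 d after a lesion of the cervical dorsal columns. Each of the 8 conditions had 2 mice, and dissociation was done with the transcription inhibitor actinomycin D and removal of dead cells. GFAP is made by astrocytes but also by some neural progenitors, and the fraction of astrocytes that had recombined was not measured here.

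The table held 18203 cells in 17 clusters. Cluster names are the deposited ones. Replicate 2 of WT at 1 d held 1 cell with 266 UMIs and was left out of all levels and tests, so WT at 1 d was 1 mouse. The other 15 mice had 208 to 1845 cells and 536263 to 9008729 UMIs, with medians of 414 to 3637 UMIs per cell. Depth differed with time and replicate. Medians were 414 to 548 in replicate 1 at 1 d and 7 d, and 2112 to 3637 in the mice at 14 d. For 6 mice, all of replicate 2 and with 6263 cells, the cell names give a condition other than the sample title. By title these were uninjured WT and cKO, WT at 1 d and 7 d, and WT and cKO at 14 d. The calls of Cdh13 in Cluster 7 and of Ctnnb1 are also given without these mice and after regrouping them as the names of their cells say. Calls that other settings or DESeq2 alone gave were not rerun that way, and the edgeR values of those genes are given where that fit was made. In all, 166 barcodes were found in more than 1 mouse, and 17937 barcodes were distinct. The batch number in the cell table equalled the replicate number in all 16 mice.

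Cadherins are calcium-dependent adhesion proteins. Classical cadherins bind their own kind across cell contacts and are tied to actin through catenins, whereas most non-clustered protocadherins bind more weakly and signal through other cytoplasmic partners. In the nervous system they sort cell types, shape synapses and hold astrocytes, endothelial cells and ependymal cells in contact with their neighbours.

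Levels are given as CPM, in which the counts of a gene are scaled to a fixed UMI total for each mouse and cluster, for mice with at least 10 cells in the cluster. They describe each gene across clusters and carry no p-value, since the clusters had been drawn from the same expression data. CPM of 3′ tags were not compared between genes. For changes with time and genotype, the UMIs were summed per mouse and cluster and tested in 10 clusters with edgeR's quasi-likelihood test, adjusted over all genes of the cluster with a threshold of 0.05.

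The targeted gene was looked at first. In Cluster 7 astrocytes, Ryk had 123 and 138 CPM in uninjured WT mice and 78.3 and 192 CPM in uninjured cKO mice, in replicates 1 and 2. At 1 d there were 129 CPM in WT and 36.1 and 117 CPM in cKO, and at 7 d there were 239 and 147 CPM in WT and 56.1 and 138 CPM in cKO. The 14 d mice had 152 and 139 CPM (WT) and 165 and 153 CPM (cKO). WT and cKO mice overlapped. The low cKO values were those of replicate 1, from 6, 1 and 2 UMIs in uninjured mice, at 1 d and at 7 d. In Cluster 5 astrocytes, uninjured mice had 139 and 44.3 CPM (WT) and 71.8 CPM (cKO). At 1 d there were 73.6 CPM (WT) and 0 and 56.1 CPM (cKO). Both cKO mice were above both WT mice at 7 d (142 and 96.1 beside 46.9 and 85.9 CPM) and 14 d (78.5 and 99.97 beside 65.8 and 76.1 CPM). The deleted part of Ryk is not given in the sources used here, and a 3′ tag outside it would check nothing about the genotype.

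Members were found in neural, vascular and connective tissue clusters. Of the 28 members with at least 100 UMIs, 6 had their highest mean in Cluster 7 astrocytes, 5 in Cluster 9 pericytes, 5 in Cluster 11 oligodendrocyte precursor cells (OPC) and 4 in Cluster 3 neurons. Cluster 2 was named astrocytes, but its summed level of 6 oligodendrocyte markers, 17180 CPM, was above that of 7 astrocyte markers, 7659 CPM, so it is called Cluster 2 only. Cluster 9 had 13844 CPM of 7 pericyte and smooth muscle markers and also 6136 CPM of 7 endothelial markers. Cluster 5 astrocytes had 15255 CPM of the astrocyte markers and also 10155 CPM of the oligodendrocyte markers. In Cluster 7 these sums were 11025 and 1891 CPM.

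**Figure D1:**
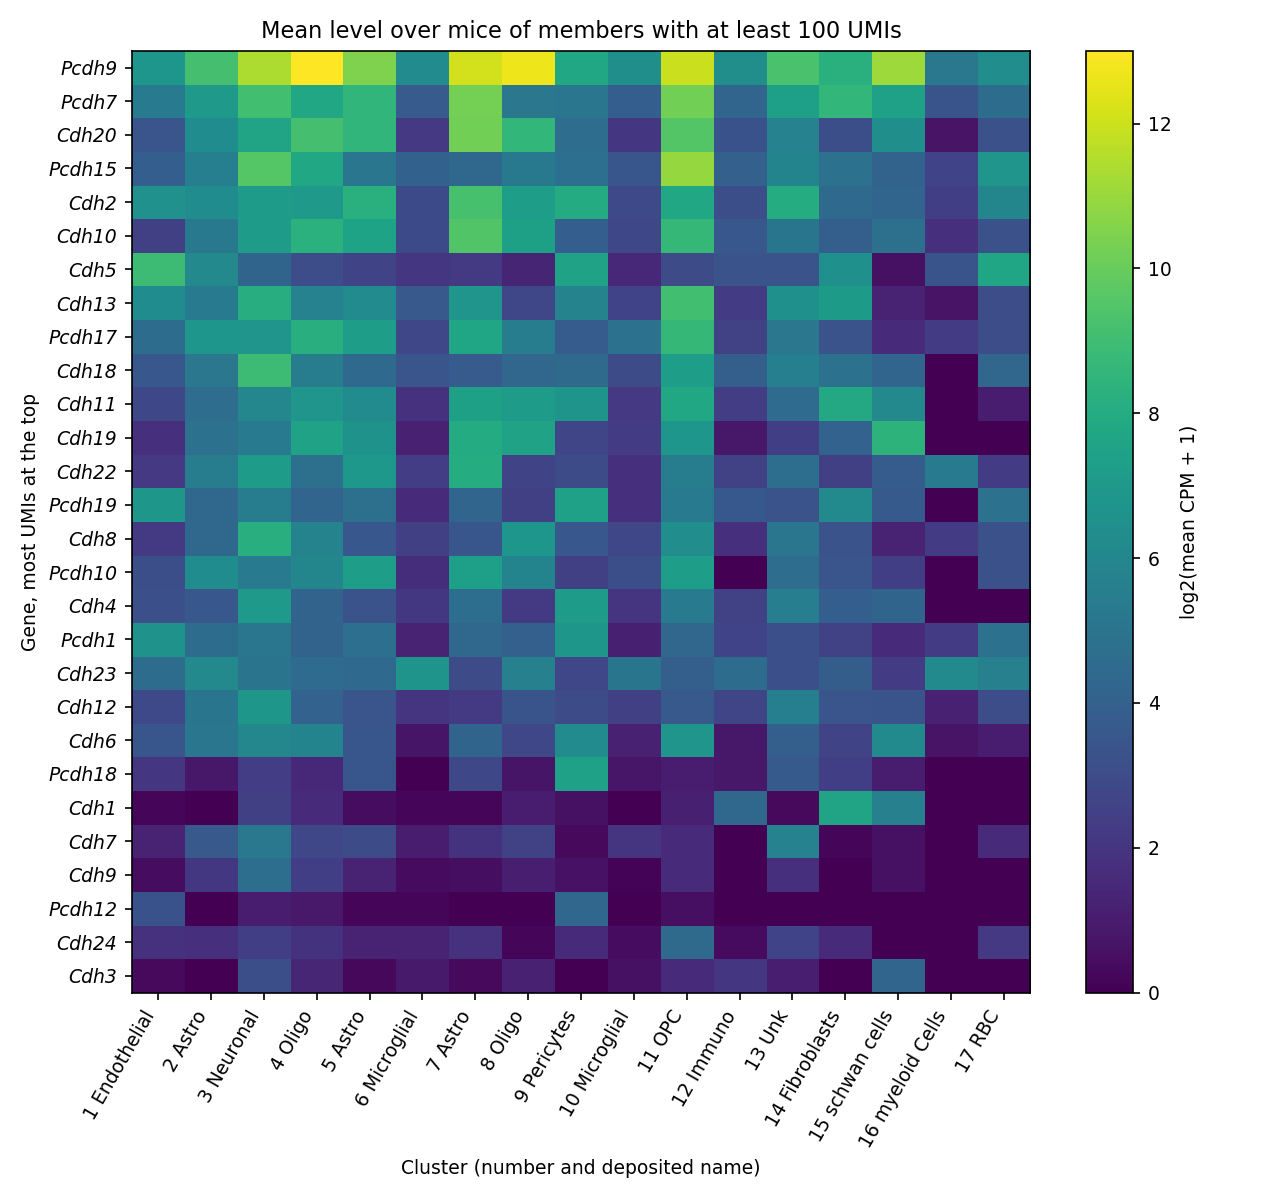
Mean level of each member with at least 100 UMIs (vertical axis, most UMIs at the top) in each of the 17 clusters (horizontal axis, number and deposited name), as log2 of the mean CPM over mice plus 1. Pcdh9 is high in many neural clusters, with a mean of 8219 CPM in Cluster 4, whereas Cdh5 stands out in Cluster 1 with a mean of 474 CPM and Pcdh18 in Cluster 9 with a mean of 170.4 CPM.

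Among the type I classical cadherins, Cdh2, the cadherin of neural and glial contacts, was highest in Cluster 7 astrocytes at 593 ± 73.2 CPM (SD, n = 15 mice). Its level was 308 ± 242 CPM (SD, n = 14) in Cluster 5 astrocytes, 267 ± 107 CPM (SD, n = 10) in Cluster 13 and 251 ± 104 CPM (SD, n = 15) in Cluster 9 pericytes, values that overlap with each other within their spread. The sample labels give an animal number for each mouse, and mice were split here into 2 number series at 10000. That cut is not in the labels. Among the mice with animal numbers below 10000, the mean of Cdh2 was highest in Cluster 5. Over all mice, myeloid Cluster 16 and microglial Clusters 10 and 6 were at the other end, with means of 4.42, 6.29 and 6.46 CPM.

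In Cluster 7, no difference of Cdh2 with time was called. Uninjured WT mice had 587 and 601 CPM and uninjured cKO mice 417 and 492 CPM. At 1 d there were 741 CPM in the only WT mouse and 541 and 608 CPM in the cKO mice. At 7 d WT mice had 637 and 614 CPM and cKO mice 561 and 614 CPM. The injured mice lay in 1 band that overlapped with the uninjured WT mice, and both uninjured cKO mice lay below that band. Of these cKO mice, replicate 1 had 32 UMIs from 20 cells, and the cell names call replicate 2 a WT mouse at 7 d. The cell names also call replicate 2 of uninjured WT, at 601 CPM, an uninjured cKO mouse, so no genotype difference can be read here. At 14 d WT mice had 599.5 and 612 CPM and cKO mice 656 and 618 CPM. The differences from uninjured were 0.12 (SE 0.23), 0.08 (SE 0.20) and 0.18 (SE 0.19) on the log2 scale at 1 d, 7 d and 14 d, and that of cKO from WT was −0.16 (SE 0.15). In edgeR's test none passed the threshold, with adjusted p of 0.980, 0.974, 0.825 and 1.00.

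The other type I members were sparse or found elsewhere. Cdh1 (E-cadherin), the cadherin of epithelia, was highest in Cluster 14 fibroblasts at 192 ± 190.4 CPM (SD, n = 9), with mice from 0 to 546 CPM, and next in Cluster 15 Schwann cells at 49.7 ± 38.7 CPM (SD, n = 5). Cdh4 (R-cadherin) was at 145 ± 105 CPM (SD, n = 15) in Cluster 9 pericytes and at 129.5 ± 70.9 CPM (SD, n = 15) in Cluster 3 neurons. Within mice, Cdh4 was higher in Cluster 9 than in Cluster 3 in 8 of 15, so the order of these clusters was not settled. Cdh3 (P-cadherin) had 122 UMIs, with its highest mean, 17.99 CPM, in Cluster 15 Schwann cells from 1 of 5 mice, and Cdh15 (M-cadherin of muscle) had 4.

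Type II cadherins, which bind in overlapping combinations and mark subsets of neurons and glia, had their highest means in clusters of several cell types. Cdh20 and Cdh10 were both highest in Cluster 7 astrocytes. Cdh20 was at 1196 ± 219 CPM (SD, n = 15) there and at 724 ± 275 CPM (SD, n = 14) in Cluster 11 OPC. For Cdh10 the values were 708 ± 162 CPM (SD, n = 15) and 410.2 ± 131 CPM (SD, n = 14). Each was higher in Cluster 7 than in Cluster 11 in 13 of 14 mice, with median log2 ratios within a mouse of 0.98 for Cdh20 and 0.87 for Cdh10.

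Neither gene separated the time points. Over the 15 mice, Cdh20 in Cluster 7 had a lowest value of 890.3, a median of 1161 and a highest value of 1598 CPM. The lowest and the highest mouse were both WT mice at 14 d, so the whole range fell within 1 condition. Cdh10 ran from 456 to 998 CPM with a median of 729 CPM. Its lowest mouse was WT at 14 d and its highest WT at 7 d.

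Cdh22 was also highest in Cluster 7, at 262 ± 64.7 CPM (SD, n = 15), with 146 ± 66.7 CPM (SD, n = 15) in Cluster 3 neurons and 13 of 15 mice higher in Cluster 7. Cdh22 had time point means of 275 CPM in uninjured mice and 306, 253 and 224 CPM at 1 d, 7 d and 14 d. These means differ by less than the spread of the uninjured mice, which ran from 181 to 391 CPM.

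Cdh19, known from Schwann cell precursors and glia, was at 342 ± 342 CPM in Cluster 15 Schwann cells (SD, n = 5) and at 251 ± 68.8 CPM in Cluster 7 astrocytes (SD, n = 15). The Schwann cell value rests on 5 mice with 0 (WT 7 d), 95.6 (WT 14 d), 239.9 (cKO 1 d), 545 (cKO 14 d) and 829.8 CPM (cKO 7 d). Within mice it was higher in Cluster 15 in 2 and in Cluster 7 in 3, so no order can be read. Cdh11, a cadherin of mesenchyme, was spread in the same way, at 232 ± 175 CPM (SD, n = 9) in Cluster 14 fibroblasts, 217 ± 57.6 CPM (SD, n = 14) in Cluster 11 OPC and 169 ± 55.9 CPM (SD, n = 15) in Cluster 7 astrocytes.

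The endothelial type II member, Cdh5 (VE-cadherin), which seals endothelial junctions, was at 474 ± 52.2 CPM (SD, n = 15) in Cluster 1 endothelial cells. In Cluster 9 it was at 182 ± 59.6 CPM (SD, n = 15), the cluster in which endothelial markers were also found. The mean of 208 CPM in Cluster 17 red blood cells came from 4 mice that ran from 0 to 803 CPM. Uninjured mice had 470.5 and 415 CPM (WT) and 384 and 473 CPM (cKO) in Cluster 1. At 1 d the values were 489 CPM (WT) and 416 and 519.7 CPM (cKO), and at 7 d they were 399 and 487 CPM (WT) and 446 and 521 CPM (cKO). All 4 mice at 14 d, from 496 to 548 CPM, were above all 4 uninjured mice in CPM. After normalization over the cluster's genes, the 14 d difference was −0.0036 (SE 0.20) on the log2 scale, and edgeR's adjusted p was 1.00. The 1 d and 7 d differences were −0.05 (SE 0.22) and −0.19 (SE 0.21).

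Neurons held a further set of type II members. Cdh18 was at 485 ± 232 CPM (SD, n = 15) in Cluster 3 and at 151 ± 91.2 CPM (SD, n = 14) in Cluster 11 OPC, and it was higher in Cluster 3 in all 14 mice with both. Uninjured mice had 661 and 321 CPM (WT) and 574 and 236 CPM (cKO), in replicates 1 and 2. At 7 d the values were 982 and 276 CPM (WT) and 761 and 224 CPM (cKO), in the same order. Replicate 1 was above replicate 2 at both of these times in both genotypes, and the replicates are also the batches. At 1 d the WT mouse, of replicate 1, had 396 CPM from 3 UMIs. The cKO mice at 1 d had 834 and 533 CPM in replicates 1 and 2. At 14 d, where both replicates had animal numbers from 10000, the 4 mice lay between 325 and 402 CPM. The part of the batch and of depth in these levels was not tested.

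Of the neuronal members with fewer UMIs, Cdh8 was at 298 ± 223 CPM, Cdh12 at 116 ± 37.6 CPM and Cdh9 at 24.6 ± 33.7 CPM in Cluster 3 (SD, n = 15 for each). Cdh7 was at 52.5 ± 49.3 CPM (SD, n = 10) in Cluster 13, named Unk in the cell table and with 3476 CPM of 5 ependymal markers, and at 36.2 ± 23.3 CPM (SD, n = 15) in Cluster 3, and was higher in Cluster 13 in 4 mice and in Cluster 3 in 5 of 10. Cdh6 was highest in Cluster 11 OPC at 109 ± 50.6 CPM (SD, n = 14), with 77.1 ± 54.4 CPM (SD, n = 15) in Cluster 9 pericytes and 8 of 14 mice higher in Cluster 11, so for neither gene was the order settled. Cdh24 was also highest in Cluster 11, from 153 UMIs in all. Cdh9, Cdh10, Cdh12, Cdh18 and Cdh6 are all on chromosome 15 of mm10, which carries 5 members, and the clusters of their highest means were neuronal for Cdh9, Cdh12 and Cdh18, astrocytic for Cdh10 and OPC for Cdh6.

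The GPI-anchored member, Cdh13 (T-cadherin), lacks the cytoplasmic tail that binds catenins and is known as a receptor for adiponectin in vessels and muscle. It spans 1041189 bases of chromosome 8 of mm10, from 118283733 to 119324921 on the plus strand. Cdh13 was highest in Cluster 11 OPC at 528 ± 176 CPM (SD, n = 14), followed by Cluster 3 neurons at 277 ± 84.3 CPM (SD, n = 15), and it was higher in Cluster 11 than in Cluster 3 in 13 of 14 mice. In endothelial Cluster 1 it was at 79.0 ± 52.1 CPM (SD, n = 15).

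Cdh13 was the one member that the edgeR fit described above called for time. In Cluster 7 astrocytes it was at 47.7 and 7.24 CPM in uninjured WT mice and at 13.04 and 69.5 CPM in uninjured cKO mice. At 1 d Cdh13 reached 258 CPM in the only WT mouse and 289 and 509 CPM in the cKO mice. These 3 mice were above all other mice of the cluster. At 7 d the values were 26.5 and 34.3 CPM (WT) and 168 and 55.2 CPM (cKO), and at 14 d they were 40.3 and 70.3 CPM (WT) and 17.0 and 39.9 CPM (cKO). By 7 d the level was back among the uninjured values in 3 of 4 mice, and the mice at 14 d overlapped with the uninjured mice.

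The rise at 1 d was 3.12 on the log2 scale (SE 0.48, 15 mice in the fit, adjusted p = 0.000677 by edgeR's quasi-likelihood test). The differences at 7 d and 14 d were 0.26 (SE 0.53) and 0.05 (SE 0.49) and did not pass. The mean was 34.4 ± 29.4 CPM (SD, n = 4) before injury and 352 ± 137 CPM (SD, n = 3) at 1 d. The 1 d values rest on 8 UMIs in the WT mouse and on 8 and 148 UMIs in the cKO mice. DESeq2 gave 3.13 with an adjusted p of 0.000859. The cKO difference from WT over all times was 0.15 (SE 0.35), and the difference between genotypes in the change after injury was −0.18 (SE 0.76), neither past the threshold.

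The call depended on 1 library. Without replicate 2 of cKO at 1 d the difference was 2.42 with an edgeR adjusted p of 0.357. In replicate 1 alone, with 2 mice at 1 d, edgeR gave 2.94 (adjusted p = 0.566), and in WT mice alone, with 1 mouse at 1 d, it gave 2.55 (adjusted p = 0.747). In edgeR's fit of the 10 mice whose cell names match the titles the difference was 3.29 (adjusted p = 0.0119), and with mice regrouped by cell names it was 2.88 (adjusted p = 0.176). In replicate 2 alone and in the libraries with medians of at least 1000 UMIs per cell, the 1 d group was that 1 library, so their differences of 3.39 and 3.67 give no further support. The direction was the same in all 30 alternatives run, from 2.42 to 3.67, and 26 of them, these 2 included, were under the threshold. Of the 26, the clustering before cells were moved left this fit as it was. Over the 30, adjusted p ran from 1.85e-08 to 0.747 in edgeR or DESeq2.

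Markers of other cell types were also summed in Cluster 7. The 5 OPC markers summed to 32.2, 108 and 55.0 CPM in the WT mouse and the cKO mice, with 1, 1 and 3 of them detected and Tnr, Vcan and Tnr the most abundant. The range at the other times was 14.5 to 140.2 CPM, and the mean in Cluster 11 was 7521 CPM. The 7 neuron markers summed to 32.2, 144 and 361 CPM at 1 d, 53.1 to 533 CPM at the other times and 12237 CPM in Cluster 3. The 7 endothelial markers summed to 225.5, 72.1 and 340.2 CPM at 1 d, with 4, 1 and 7 of them detected and Ly6c1, Flt1 and Flt1 the most abundant. Their median was 225.5 CPM at 1 d and 52.6 CPM at the other times, where they ran from 28.4 to 552 CPM. The 5 red blood cell markers summed to 161, 0 and 107 CPM at 1 d, with 3, 0 and 4 of them detected and Hba-a1 and Hbb-bs the most abundant where any was. Their median was 107 CPM at 1 d and 14.9 CPM at the other times, where they ran from 0 to 292 CPM. The medians of both lists were thus higher at 1 d, as was that of Cdh13, while their ranges overlapped with the other times. The medians of the oligodendrocyte, Schwann, macrophage and pericyte lists were also higher at 1 d, at 2499, 110, 17.2 and 61.9 CPM beside 1558, 61.7, 6.08 and 46.2 CPM. Over all 13 lists, 10 had a higher median at 1 d, and those of the astrocyte, fibroblast and neutrophil lists were lower. The part of these lists in the rise was not tested.

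In Cluster 5, the other astrocyte cluster of the fit, Cdh13 was at 30.8 and 0 CPM in uninjured WT mice and at 18.7 CPM in the uninjured cKO mouse. At 1 d the WT mouse stood at 515 CPM and the cKO mice at 143 and 64.5 CPM. At 7 d and 14 d the 8 mice lay between 5.06 and 107 CPM. The 1 d mice were above the uninjured mice, and the lowest of them was within the 7 d range. The difference at 1 d was 3.19 (SE 0.92), and with an edgeR adjusted p of 0.422 it did not pass. With the animal number series as a term edgeR gave 2.55 (adjusted p = 0.00911), and without a filter on low counts 2.94 (adjusted p = 0.0256), so other settings called it. Without the mice whose cell names differ and after regrouping by cell names, edgeR gave 3.27 and 3.64 (adjusted p = 1.00 for both).

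**Figure D2:**
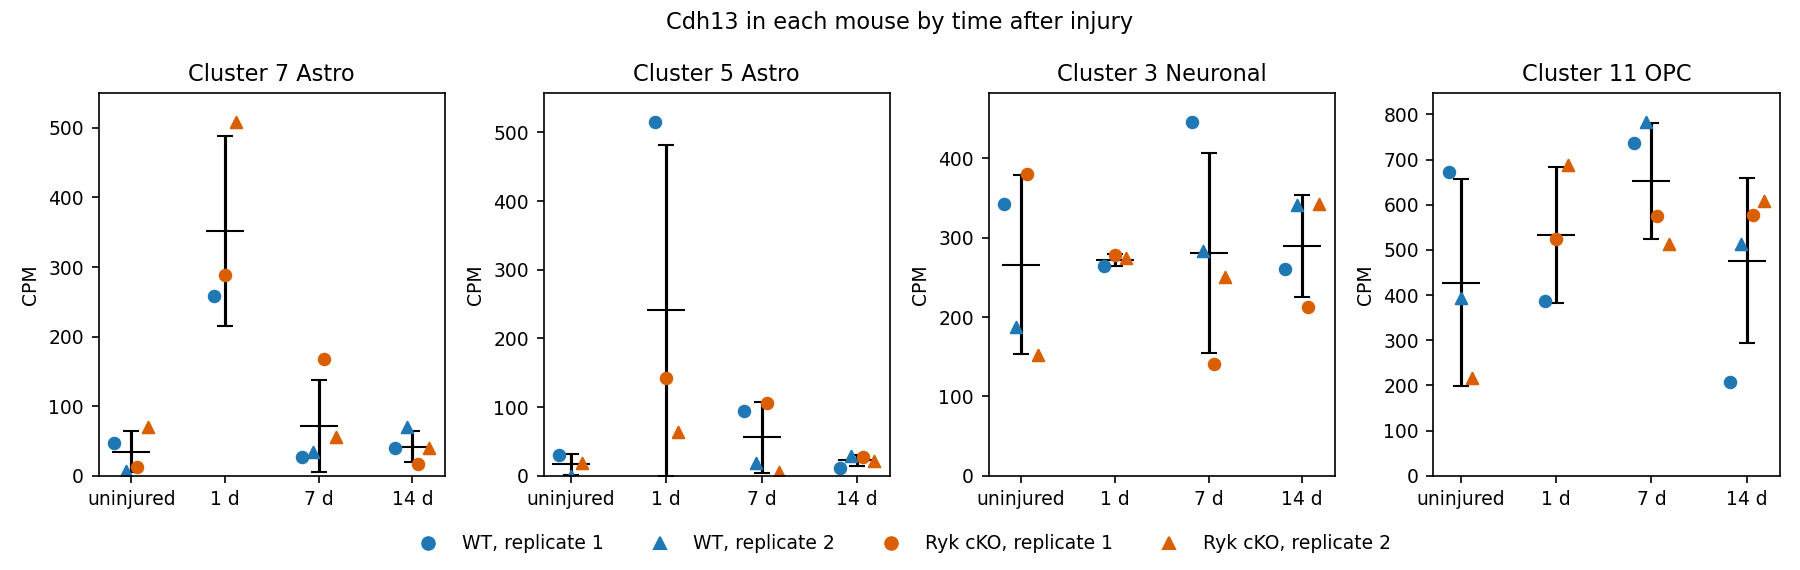
Cdh13 level in CPM (vertical axes, starting at 0) against time after injury (horizontal axes) in Clusters 7, 5, 3 and 11. Each point is 1 mouse, with color for genotype and shape for replicate, and bars show the mean and SD of the time point, clipped at 0 in Cluster 5 at 1 d. In Cluster 7 the 3 mice at 1 d lie at 258 to 509 CPM and all others at or below 168 CPM, whereas the time points overlap in Clusters 3 and 11.

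In Clusters 11 and 3 the time points of the same gene overlapped. Cdh13 in OPC had time point means of 427 CPM in uninjured mice and 533, 652 and 477 CPM at 1 d, 7 d and 14 d, and the largest of the fitted differences was 0.45 (SE 0.47) at 7 d. In neurons the means were 266, 272, 281 and 289.5 CPM. In Cluster 6 microglia, where Cdh13 did not pass the filter on low counts, replicate 2 of cKO at 1 d stood apart at 100 CPM from 22 UMIs, with the other mice at 0 to 12.8 CPM. The library on which the call depended was thus high in a microglial cluster too, and the part of this in the rise was not tested. Whether the 1 d difference in Cluster 7 differed from that in the other clusters was not tested.

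Among the protocadherins of the Pcdh1, Pcdh7 and Pcdh9 subgroup, which carry a long extracellular part and a motif that binds a protein phosphatase, Pcdh9 was highest in Cluster 4 oligodendrocytes at 8219 ± 2782 CPM (SD, n = 15). It was at 6509 ± 3531 CPM (SD, n = 14) in Cluster 8, the other oligodendrocyte cluster, at 4440 ± 654 CPM (SD, n = 15) in Cluster 7 astrocytes, at 3968 ± 1291 CPM (SD, n = 14) in Cluster 11 OPC and at 2698 ± 915 CPM (SD, n = 15) in Cluster 3 neurons. In endothelial Cluster 1 and microglial Cluster 6 the means were 113 and 77.6 CPM. Neighbours among the first 5 clusters overlap within their spread, whereas the lowest neuron value, 1600.4 CPM, lies above the highest endothelial value, 301 CPM.

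In Cluster 4, Pcdh9 was at 11393 and 4441 CPM in uninjured WT mice and at 10304 and 3783 CPM in uninjured cKO mice, in replicates 1 and 2. The values at 1 d were 10577 CPM in the WT mouse and 8972 and 4296 CPM in the cKO mice. At 7 d WT mice had 10853 and 7035 CPM and cKO mice 11352 and 8420 CPM. Replicate 1 was above replicate 2 in every pair up to 7 d. At 14 d the order was 5279 and 9162 CPM in WT and 10973 and 6443 CPM in cKO, which put replicate 2 above replicate 1 in WT. The fitted differences from uninjured were −0.04 (SE 0.47), 0.21 (SE 0.43) and 0.01 (SE 0.43) at 1 d, 7 d and 14 d, and none passed.

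Pcdh7 was shared between Cluster 7 astrocytes, at 1258 ± 183 CPM (SD, n = 15), and Cluster 11 OPC, at 1201 ± 347 CPM (SD, n = 14). It was higher in Cluster 7 in 6 mice and in Cluster 11 in 8, so these clusters did not differ beyond their spread. Neurons of Cluster 3 followed with 529 ± 211 CPM (SD, n = 15). Over the 15 mice, Pcdh7 in Cluster 7 ran from 897 to 1610.2 CPM with a median of 1256 CPM, and its lowest and highest mice were both cKO mice at 7 d. Pcdh1, found in epithelia and vessels, was at 115 ± 34.8 CPM (SD, n = 15) in Cluster 9 pericytes and at 99.8 ± 18.7 CPM (SD, n = 15) in Cluster 1 endothelial cells.

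Of the protocadherins that bind the WAVE actin regulators, Pcdh17 was highest in Cluster 11 OPC at 403 ± 212 CPM (SD, n = 14), with 296 ± 319 CPM (SD, n = 15) in Cluster 4 oligodendrocytes and 204 ± 65.9 CPM (SD, n = 15) in Cluster 7 astrocytes. In Cluster 4 the mice ran from 84.5 to 1185 CPM with a median of 142 CPM, well below the mean. Among the mice with animal numbers from 10000 the mean of Pcdh17 was highest in Cluster 4, so the order of these clusters was not settled. Pcdh10 was nearly level between Cluster 7 astrocytes, Cluster 11 OPC and Cluster 5 astrocytes, at 162 ± 38.8, 149.8 ± 63.3 and 149 ± 79.7 CPM (SD, n = 15, 14 and 14). Pcdh18 was found mainly in Cluster 9 pericytes, at 170.4 ± 75.3 CPM (SD, n = 15), with the next cluster, 13, at 11.7 CPM, and it was higher in Cluster 9 in 10 of 10 mice.

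Pcdh19, an X-linked gene tied to epilepsy in people, was at 176 ± 64.7 CPM (SD, n = 15) in Cluster 9 and at 117 ± 42.0 CPM (SD, n = 15) in Cluster 1. In Cluster 9 it was at 126 and 68.2 CPM in uninjured WT mice and at 258 and 72.2 CPM in uninjured cKO mice. At 14 d it was at 91.1 and 223 CPM in WT and at 243 and 280.1 CPM in cKO. The groups overlap, and the 14 d difference of 0.74 (SE 0.34) did not pass, with an edgeR adjusted p of 0.981. Pcdh12, an endothelial protocadherin, was found in Cluster 9 at 18.3 ± 18.7 CPM and in Cluster 1 at 8.58 ± 5.39 CPM (SD, n = 15 for both). It lies near Pcdh1 on chromosome 18.

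The tip-link pair of the inner ear, Pcdh15 and Cdh23, was split between cell types here. Pcdh15, the longest member gene with 1550396 bases on chromosome 10, was highest in Cluster 11 OPC at 1988 ± 697 CPM (SD, n = 14) and next in Cluster 3 neurons at 749 ± 360 CPM (SD, n = 15). It was higher in Cluster 11 in 14 of 14 mice, with a median log2 ratio within a mouse of 1.51. Cdh23 was highest in Cluster 6 microglia at 106 ± 57.5 CPM (SD, n = 14), with myeloid Cluster 16 next at 71.3 ± 82.2 CPM (SD, n = 5).

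Pcdh15 in Cluster 11 was at 3406 and 1843 CPM in uninjured WT mice and at 1410 CPM in the uninjured cKO mouse. The 1 d values were 2154 CPM (WT) and 2118 and 1346 CPM (cKO), and those at 7 d were 3124 and 2479 CPM (WT) and 1249 and 1229 CPM (cKO). The cKO mice were below the WT mice in each of these groups, but at 1 d 2118 and 2154 CPM, from 85 and 39 UMIs, were nearly level. The cell names give another condition for the uninjured cKO mouse and for replicate 2 of uninjured WT and of WT at 7 d. The order thus rests in part on mice whose labels disagree. At 14 d the values were 1207 and 2452 CPM (WT) and 1923 and 1886 CPM (cKO), which overlap. The difference of cKO from WT was −0.55 (SE 0.31) over 14 mice, and with an edgeR adjusted p of 1.00 it did not pass.

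Cdh23 gave small p-values in several clusters, none past the threshold in the filtered edgeR fit over all mice. In neurons its differences from uninjured were 1.38 (SE 0.48), 1.14 (SE 0.45) and 1.28 (SE 0.39) at 1 d, 7 d and 14 d, with edgeR adjusted p of 1.00, 0.441 and 0.110. In endothelial cells the 1 d difference was 1.58 (SE 0.61, adjusted p = 0.842 by edgeR). Both 1 d differences changed sign without replicate 2 of cKO at 1 d, to −0.52 and −0.47, so they rested on that library. In other settings edgeR called Cdh23 at 1 d in Cluster 5 without a filter on low counts (3.21, adjusted p = 0.0341) and in cKO mice alone (4.99, adjusted p = 0.0375), and in Cluster 4 without that filter (5.26, adjusted p = 9.11e-05). In Cluster 5 that same library had 220 CPM from 106 UMIs and all other mice 0 to 15.4 CPM. In Cluster 4 it had 235 CPM from 102 UMIs and all other mice 0 to 24.7 CPM, so these calls came from 1 library too. The calls of Cdh23 at 1 d in replicate 2 alone and in the deeper libraries had it as the only 1 d mouse.

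**Figure D3:**
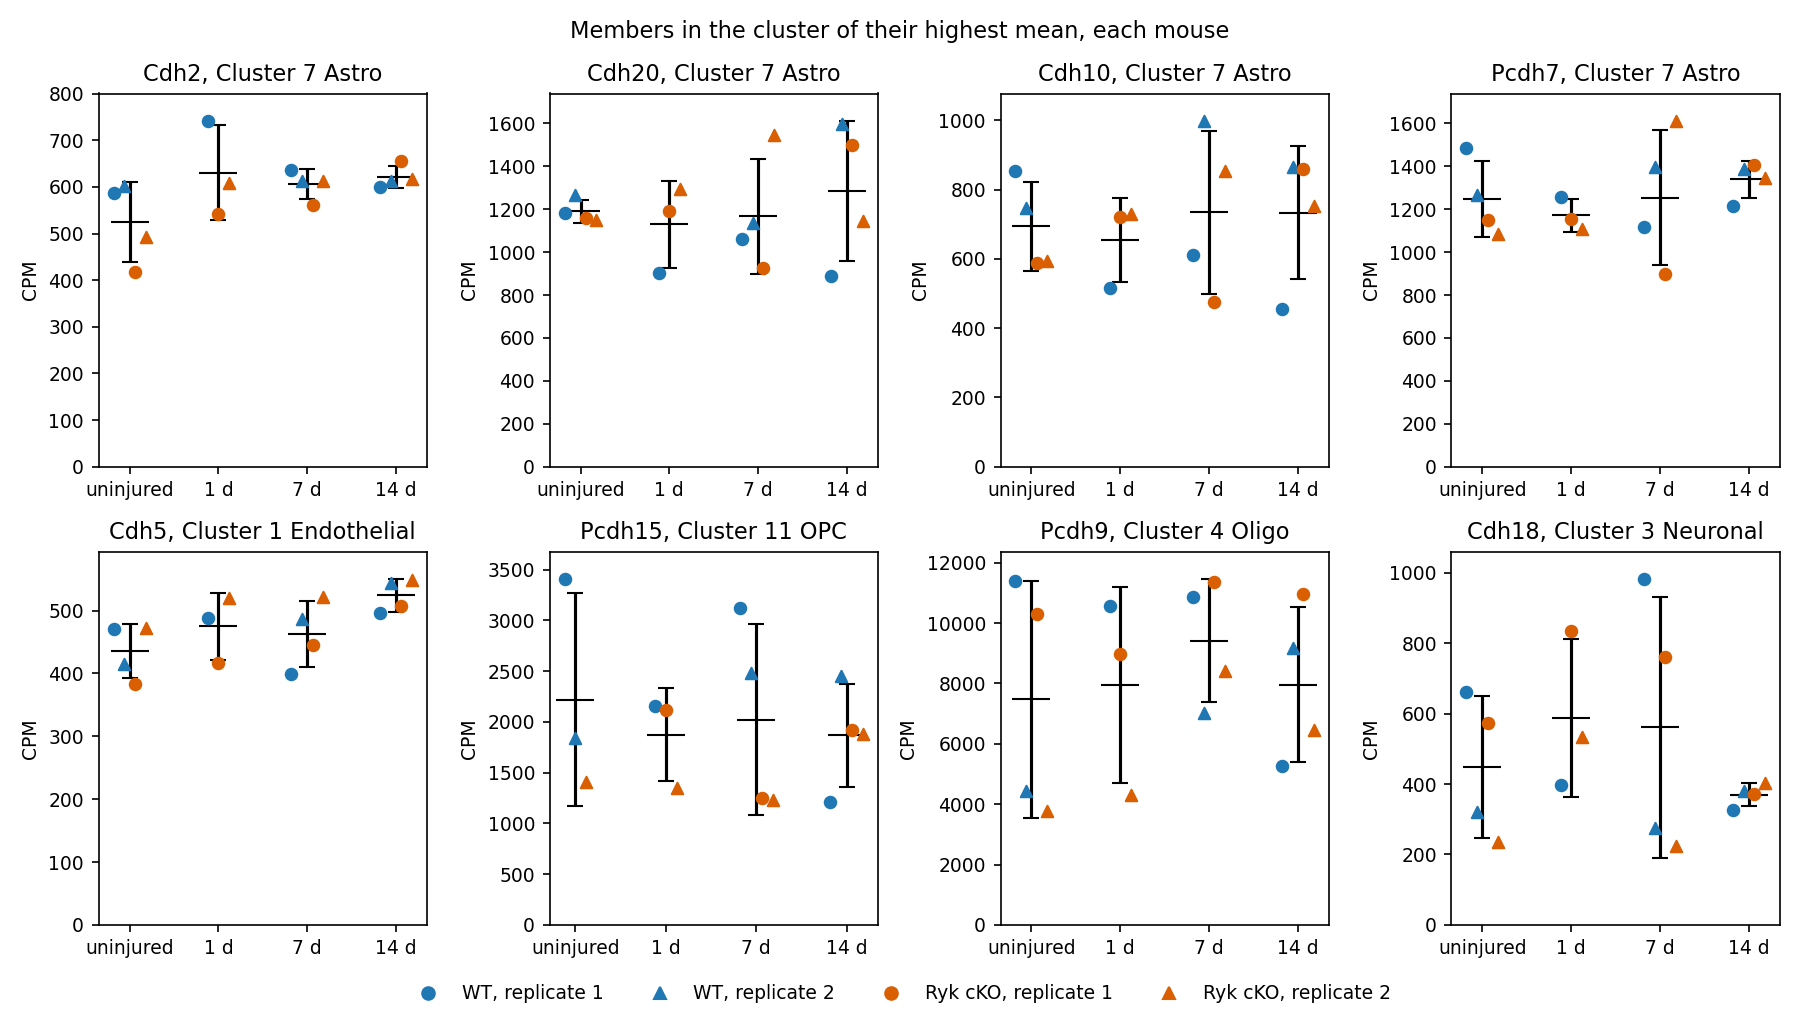
Level in CPM (vertical axes, starting at 0) of 8 members in the cluster of their highest mean, against time after injury (horizontal axes). Each point is 1 mouse, with color for genotype and shape for replicate, and bars show the mean and SD of the time point. Cdh2 lies between 417 and 741 CPM in all mice, and for Pcdh9 and Cdh18 replicate 1 lies above replicate 2 in uninjured mice and at 7 d.

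Over all fitted clusters, 24 members passed the filter on low counts in at least 1 cluster, giving 104 tests for each time point. Members called at 1 d were 1 (Cdh13 in Cluster 7), beside a background of 0.105% of all 52206 gene tests and 0.187% of the 5351 tests in Cluster 7. No member was called at 7 d (background 0.0613%) or at 14 d (background 0.209%) by edgeR. DESeq2 called the same 1 at 1 d and none at 7 d and 14 d, beside 0.425%, 0.222% and 0.379% of all gene tests. Counting unadjusted p under 0.05 took in 4, 5 and 9 of the 104 member tests at 1 d, 7 d and 14 d, or 3.85%, 4.81% and 8.65%, beside 6.52%, 7.52% and 8.58% of all gene tests. The members' shares lay below those of all genes at 1 d and 7 d and near it at 14 d. Their median differences were −0.04, 0.05 and 0.01, and the medians of all genes in the single clusters ran from −0.14 to 0.26, from −0.08 to 0.28 and from −0.04 to 0.32.

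No member was called for genotype in the filtered edgeR fit, and almost no other gene was. Without a filter on low counts, edgeR called Cdh23 in Cluster 8 (4.73, adjusted p = 0.00774), beside 93 genes over all fitted clusters. Cdh23 in Cluster 8 was at 50.4 ± 169 CPM (SD, n = 14), with 9 mice at 0 and a highest value of 635 CPM. That value was from replicate 2 of cKO at 1 d, the library behind the Cdh23 calls at 1 d. The genotype call thus leaned on 1 library, and no genotype difference can be read from it. For cKO against WT over all time points, 0 of 104 member tests were called by edgeR (background 0.00192%) and 0 by DESeq2, with 2 at an unadjusted p under 0.05, or 1.92% beside 1.78% of all genes. The median difference was −0.04. For the difference between genotypes in the change after injury, 0 of 140 tests over 26 members were called by edgeR (background 0.00266%) and 0 by DESeq2, with 7 at an unadjusted p under 0.05, or 5.00% beside 4.18% of all genes. The median of 0.78 for the members stands beside medians of all genes from 0.12 to 1.72 in the single clusters, and these values depend on the prior count where a condition has no UMI.

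The members with the smallest p outside the threshold are given for each comparison. Pcdh17 in Cluster 4 oligodendrocytes had differences of 2.10 (SE 0.75) at 7 d and 1.88 (SE 0.74) at 14 d, with edgeR adjusted p of 0.787 and 0.677. Without a filter on low counts edgeR called both over all 15 mice (2.14 and 2.08, adjusted p = 0.00203 and 0.00248). In edgeR's filtered fit without the mice whose cell names differ they were 0.83 and 1.79, and with mice regrouped by cell names 0.89 and 2.23, with adjusted p from 0.950 to 1.00. Pcdh9 in Cluster 6 microglia was at −1.57 (SE 0.53, adjusted p = 0.499 by edgeR) at 7 d, and Cdh9 in neurons at 1.52 (SE 0.62, adjusted p = 0.224) at 14 d. With the animal number series as a term edgeR called Cdh9 there (2.36, adjusted p = 0.0367), while without the mice whose cell names differ and after regrouping, with no such term, edgeR gave 1.24 and 1.58 (adjusted p = 1.00 and 0.815). With the series it also called Cdh4 in neurons at 14 d (1.04, adjusted p = 0.0455 by edgeR). Without that term edgeR gave 0.57 for Cdh4 there (SE 0.35, adjusted p = 0.465). Without a filter on low counts edgeR also called Cdh1 in neurons (3.06, adjusted p = 0.0449) and Pcdh17 in Cluster 10 (−4.28, adjusted p = 0.000312) at 14 d. Cdh1 in neurons was near the floor, at 4.46 ± 5.17 CPM (SD, n = 15), with 7 mice at 0 and a highest value of 14.3 CPM. In Cluster 10, replicate 2 of uninjured WT, a mouse whose cell names differ, had 329 CPM from 9 UMIs, and all other mice had 0 to 31.3 CPM, so that call rested on 1 library. For genotype they were Pcdh9 and Cdh4 in Cluster 9, at 1.14 (SE 0.47) and 0.73 (SE 0.34), and Cdh8 in Cluster 11, at −0.74 (SE 0.36), all with adjusted p of 1.00. For the genotype difference in the change after injury they were Cdh11 and Cdh20 in Cluster 8, both with an edgeR adjusted p of 0.618, and Cdh23 in Cluster 6, with 0.847. Their fitted differences depend on the prior count and are not given.

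The remaining 10 members entered no test of time in the filtered fit. Cdh1, Cdh3, Cdh24 and Pcdh12 had at least 100 UMIs and are described above. Pcdh20 had 79 UMIs, Pcdh8 65, Cdh17 49, Cdh26 46, Cdh16 12 and Cdh15 4 in all cells, and their levels are not described further. Cdh16 and Cdh17 are known from kidney and intestine.

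By position, chromosome 8 of mm10 carries 8 members, chromosomes 14 and 15 carry 5 each and chromosomes 1, 2 and 18 carry 3 each. The chromosome 8 members include the neighbours Cdh3 and Cdh1, which both had counts in Cluster 15 Schwann cells, and Cdh5, which was highest in endothelial cells. The genes span 4538 to 1550396 bases with a median of 114738 bases.

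The partners of the cadherins were listed by function. Catenins and cytoplasmic partners, which join cadherins to actin, had 11 of 12 genes tested over 85 gene and cluster pairs for each time point. Of these, 0, 1 and 1 were called by edgeR at 1 d, 7 d and 14 d, with 5, 7 and 6 at an unadjusted p under 0.05, or 5.88%, 8.24% and 7.06% beside 6.52%, 7.52% and 8.58% of all gene tests. Their median differences were 0.11, 0.19 and 0.11. Both calls were Ctnnb1 (beta-catenin) in Cluster 10 microglia, where edgeR called 28 of 4250 genes at 7 d (background 0.659%) and 33 at 14 d (background 0.776%). That cluster thus held 28 of the 32 calls at 7 d over all fitted clusters.

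Ctnnb1 in Cluster 10 was at 38.9 and 36.6 CPM in uninjured WT mice and at 42.4 CPM in the uninjured cKO mouse, from 1 UMI each. The 1 d mice had 81.5 CPM (WT) and 31.3 and 97.9 CPM (cKO). At 7 d it was at 278 and 203 CPM (WT) and 243 and 284 CPM (cKO), and at 14 d at 174 and 276 CPM (WT) and 347 and 249 CPM (cKO). All 8 mice at 7 d and 14 d were above all mice before injury and at 1 d. Ctnnb1 rose by 2.62 (SE 0.62, adjusted p = 0.0479) at 7 d and by 2.72 (SE 0.61, adjusted p = 0.0338) at 14 d in edgeR's test, while all genes of the cluster had medians of 0.28 and 0.32. DESeq2 gave 2.45 and 2.55 with adjusted p of 0.125 and 0.0879, and with the replicate as a block edgeR's adjusted p at 7 d was 0.0518. Of 29 alternatives for each, all kept the direction and 11 at 7 d and 17 at 14 d were under the threshold, with adjusted p from 0.0271 to 0.670 and from 0.00529 to 0.601 in edgeR or DESeq2. In 2 of the alternatives counted, the clustering before cells were moved and the one without replicate 1 of uninjured cKO, the mice and counts of this fit were the same. Without the mice whose cell names differ, the values were 2.97 and 3.11 (edgeR adjusted p = 0.670 and 0.504), and with mice regrouped by cell names they were 2.74 and 2.98 (edgeR adjusted p = 0.455 and 0.299).

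The other lists had 0 calls by edgeR in any comparison, and in DESeq2 the repressors of E-cadherin had 2, both Zeb2, and the others 0. All genes called by DESeq2 numbered 116 at 7 d and 198 at 14 d, and the counts that follow stand beside 6.52%, 7.52% and 8.58% of all gene tests at an unadjusted p under 0.05 at 1 d, 7 d and 14 d. Cadherins outside the naming rule (flamingo, Fat, Dachsous, calsyntenin and desmosomal genes) had 12 of 25 genes tested, with 3, 2 and 2 of 44 pairs at an unadjusted p under 0.05 at 1 d, 7 d and 14 d. Of the 58 clustered protocadherins, 2 passed the filter on low counts, with 0 of 3 pairs at that p at each time. Proteases that shed or cleave cadherins had 9 of 12 genes tested, with 1, 3 and 2 of 59 pairs at that p, and repressors of E-cadherin transcription had 5 of 9, with 1, 4 and 2 of 32 pairs, or 3.12%, 12.5% and 6.25%. Nectins had 2 of 4 genes tested, with 0, 1 and 1 of 5 pairs, and the partners of the tip link 2 of 9, with 0, 1 and 1 of 3 pairs. For genotype, 1 pair of the proteases and 0 of the other lists were at an unadjusted p under 0.05.

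The genes with the smallest p in these lists were Clstn1 (−1.31 in Cluster 9 at 1 d), Psenen (−1.92 in Cluster 7 at 7 d), Zeb2, a repressor of Cdh1 (0.80 in Cluster 7 at 14 d), Nectin1 (0.98 in Cluster 4 at 7 d), Cib2 (−1.43 in Cluster 3 at 7 d) and, for the genotype difference in the change after injury, Pcdhga12 in Cluster 9. Their edgeR adjusted p ran from 0.152 for Zeb2 to 1.00 for Clstn1, so none passed. DESeq2 put Zeb2 under the threshold in Cluster 7 at 14 d (0.81, adjusted p = 0.0286) and in Cluster 6 at 7 d (0.68, adjusted p = 0.0390). In Cluster 7 at 14 d, edgeR gave 0.76 without the mice whose cell names differ (adjusted p = 1.00) and 0.80 after regrouping (adjusted p = 0.875).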

How the data were processed

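The authors aligned the reads to mm10 with Cell Ranger and deposited raw UMI counts per gene symbol and cell, without normalization, after Seurat filters on genes and mitochondrial reads. The highest deposited percent of mitochondrial UMIs was 24.99 and the fewest genes 201, both per cell. The cell table gave cluster, condition and batch, and 8 of its columns were not used. Free RNA and doublets were not removed here. Gene positions were looked up by symbol in GENCODE's mm10 annotation.

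Mice with at least 50 cells were kept. Counts were summed per mouse and cluster for mice with at least 10 cells, in clusters with at least 9 such mice and 2 at each time. edgeR 4.0.16 in R 4.3.3 (TMM, filterByExpr, glmQLFit) was fitted with time and genotype, or with 8 condition means for their interaction, and tested on simulated data. P-values were adjusted by Benjamini-Hochberg. WT at 1 d was 1 mouse, assumed to vary like the others. Log2 ratios of CPM within mice had 50 CPM added.

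Alternatives were DESeq2 1.42.0, RLE size factors, no filter on low counts, more cells per cluster, the replicate or the animal number series as a term, replicates or genotypes alone, regrouping by cell names, the clustering before cells were moved, condition means, other averages and denominators of CPM, and each mouse left out. Fits without mice of differing cell names, and with deep libraries only, were chosen after seeing the data. Members and lists were chosen with earlier results of these data known. The batch column pairs mice of equal replicate number. Deviations of such mice correlated from −0.251 to 0.377 over 21 pairs of conditions, with 11 above 0.1.

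The 14 members with the most UMIs were described in full, others with at least 100 UMIs by their highest cluster and the rest by their total. Members past the threshold were named, with up to 3 others per comparison by smallest p. From each partner list the genes past the threshold were named, or the one with the smallest p. Figures were drawn with matplotlib 3.10.9.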

Additional observations from a re-analysis of the deposited data

How the results depend on the processing

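Of 819 values under alternatives, 750 were scored as same, 37 as weaker, 22 as stronger, 4 as moved and 6 as reversed. For a fitted difference, same meant that direction and side of the threshold were kept. Named genes without a call that stayed without one counted as same, so the total says little about the calls. Counts of calls were same within a set factor, and levels within 1 SD of the main mean, as 81 of 84 were. The main count of member calls for time was 1. It was 8 with no filter on low counts, 4 with the animal number series as a term, 8 with replicate 1 alone and 36 with replicate 2 alone, which had 1 mouse at 1 d. It was 0 with the conditions of the cell names, 0 in WT mice alone, 2 in cKO mice alone and 4 in libraries with medians of at least 1000 UMIs per cell (deep libraries, with 1 mouse at 1 d). With each mouse left out it ran from 0 (without replicate 2 of cKO at 1 d) to 6 (without replicate 1 of uninjured WT). For genotype the count was 0, with 1 under no filter and 2 in replicate 2 alone, and 0 to 0 with each mouse left out, as for the interaction. With a replicate block the counts were 1, 0 and 0 for time, genotype and interaction, and the block ended 1 named call, Ctnnb1 at 7 d. The cause was not tested.

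The 1 d difference of Cdh23 reversed in neurons to −2.49 with condition means and −6.16 in WT alone, and in endothelial cells to −0.34 with the first clustering and −0.41 in WT alone. In neurons, WT at 1 d was 1 mouse with 18 cells, 7570 UMIs and 0 of Cdh23, so both neuron values depend on the prior count and their size says nothing. With each mouse left out it ran from −0.52 to 1.63 and from −0.47 to 2.13, lowest without replicate 2 of cKO at 1 d. The cause was not tested. The cluster of the highest mean was the same for 9 of the 14 members described in full with animal numbers below 10000. Cdh2 moved to Cluster 5, Pcdh7 to Cluster 11, Cdh5 to Cluster 17, Cdh11 to Cluster 15 and Cdh19 to Cluster 8. With numbers from 10000, Pcdh17 moved to Cluster 4.

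All genes called at 1 d, 7 d and 14 d numbered 55, 32 and 109, against 222, 116 and 198 by DESeq2, 83, 27 and 54 with RLE size factors, 419, 583 and 1248 with no filter, 22, 1 and 89 with more cells, 86, 38 and 128 with the block, 233, 684 and 1723 with the animal number series, 177, 173 and 938 in replicate 1, 1492, 5810 and 7154 in replicate 2, 2, 3 and 4 by cell names, 31, 52 and 144 with condition means, 8, 10 and 12 in WT, 34, 108 and 114 in cKO, 40, 24 and 136 with matching names and 127, 47 and 223 in deep libraries. For genotype and interaction, 1 and 2 became 93 and 33 with no filter, 3 and 9 with the block, 15 and 15 with the series, 1 and 42 by cell names and 21 and 13 with matching names, and genotype 17, 208 and 9 in replicate 1, replicate 2 and deep libraries, 2 with the first clustering and 0 by DESeq2. With each mouse left out, 22 to 137, 10 to 362, 24 to 510, 0 to 4 and 0 to 23 genes were called in these 5 comparisons. More cells gave 4 and DESeq2 0 for the interaction. The interaction was not run in replicate 1 or 2 alone, in deep libraries or without the WT mouse at 1 d, which left a condition empty.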

Other observations

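Pcdh17 in Cluster 4 oligodendrocytes had no call in the filtered edgeR fit over all mice. Without a filter on low counts, edgeR called it over all 15 mice at 7 d and 14 d, as given above. In replicate 2 alone edgeR called it at 7 d and 14 d (2.37 and 1.48) and for genotype (−2.07 for cKO against WT). The 1 d difference in replicate 2 was 2.90, from 1 mouse at 1 d. The highest mice were replicate 2 of WT at 7 d, with 1185 CPM, replicate 1 of cKO at 14 d, with 828 CPM, and replicate 2 of WT at 14 d, with 506 CPM, while the uninjured mice had 87.2 to 111 CPM. In replicate 2 the cell names give another condition for both uninjured mice, the WT mouse at 7 d and both mice at 14 d. The calls in replicate 2 alone thus rest on mice whose labels disagree. The gene was chosen after its values were seen.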
